A study of Homo sapiens with 6 samples.

Results

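The Notch genes described here are the receptors NOTCH1, NOTCH2 and NOTCH3, the ligand JAG1, the coactivators MAML1 and MAML3, and DTX1, HES1, HEY2 and NRARP, which Notch signalling is known to switch on. They were taken by gene symbol from the table of transcripts, where each of the 10 genes has 1 row among 10191 rows, and each of the 10 passed the filter on low counts that left 8600 transcripts to be tested. RNA was sequenced from Huh7, a human hepatocellular carcinoma cell line, in 2 groups of 3 libraries: cells with a short hairpin RNA (shRNA) against ABL1, and cells with a scrambled shRNA. Both groups were grown in DMEM and sampled 1 week after selection with puromycin. ABL1 encodes a non-receptor tyrosine kinase, and the comparison asks what its knockdown does to the RNA of this cell line. The labels do not say whether more than 1 hairpin was used, whether the cells were clonal, or whether replicates came from separate cultures. The p-values therefore cover the variation among these 6 libraries, which could be technical.

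Notch is a pathway of direct contact between neighbouring cells. A ligand such as JAG1 on a neighbouring cell binds a Notch receptor, proteases cut the receptor, and its intracellular domain moves to the nucleus. There it joins the DNA-binding protein RBPJ and a coactivator of the Mastermind-like (MAML) family and turns on target genes, among them the transcriptional repressors of the HES and HEY families. In the liver the pathway is best known for directing progenitor cells to the bile duct fate, and loss of a functional copy of JAG1 in people causes Alagille syndrome, in which bile ducts are too few.

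In the ABL1 knockdown libraries the RNA of 7 of the 10 genes fell and that of 3 rose. NOTCH1, NOTCH3, JAG1, DTX1 and NRARP fell by at least 2-fold, HES1 and NOTCH2 by less, and HEY2, MAML3 and MAML1 rose. With equal totals, or without scrambled replicate 1, the fall of NRARP was less than 2-fold. The fall of NOTCH2 did not pass when libraries were scaled to equal totals or by quantiles. Over all 8600 transcripts, 51.9% passed the same test (limma, adjusted p under 0.05), 27.4% as falls and 24.5% as rises, and 9.02% passed with a fall of at least 2-fold. For each of the 10 genes all 3 libraries of one group lay above all 3 of the other, as they did for 58.9% of all transcripts tested. The median log2 change was -0.80 over the 10 genes and 0.0018 over all tested. The genes were chosen with earlier results of these libraries known, so these counts describe them and test nothing. In RNA from whole cultures, fewer cells that express a gene and less of its RNA per cell cannot be told apart.

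**Figure D1:**
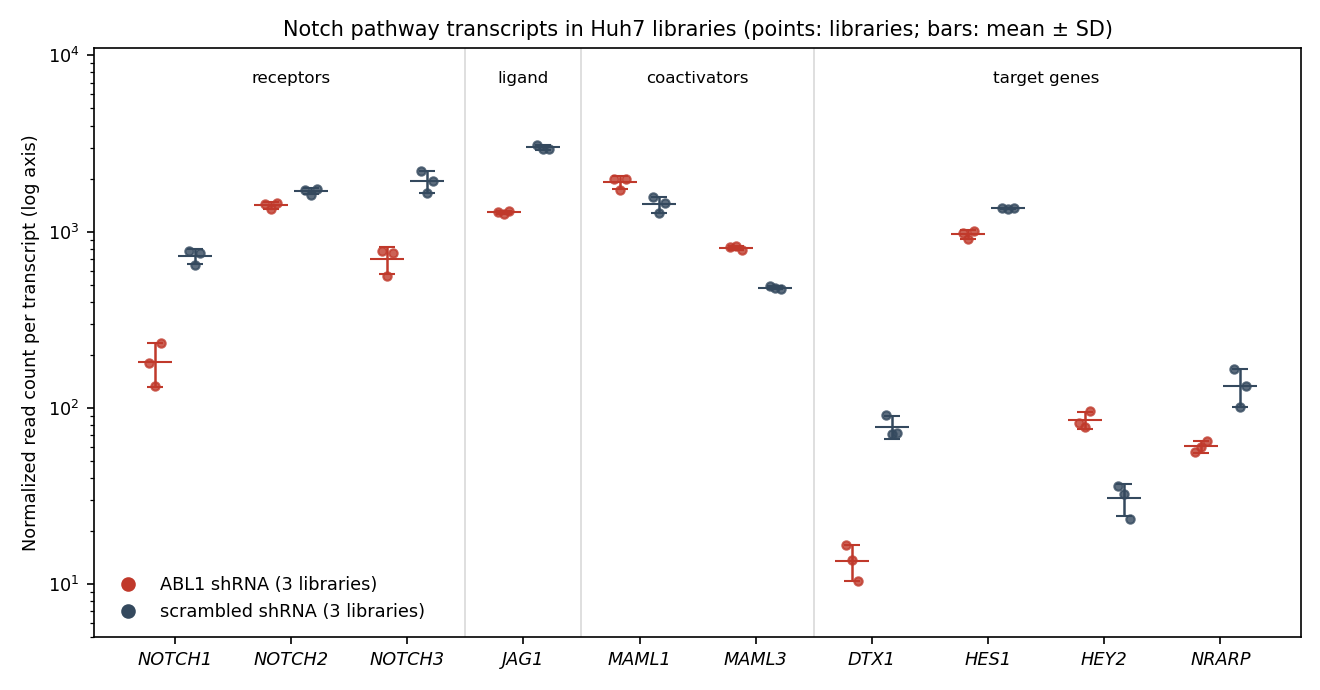
Normalized read count of each of the 10 Notch transcripts (log axis) in the 3 ABL1 shRNA and the 3 scrambled shRNA libraries, grouped by role; points are libraries and bars are mean ± SD. The groups are apart for every gene, lower in the knockdown for NOTCH1, where the means are 182 and 724, and higher in the knockdown for HEY2, where they are 85.4 and 30.6.

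The libraries held 6651413 to 7952645 reads in the knockdown group and 7713451 to 10487862 in the scrambled group. ABL1 itself, the targeted gene, was represented by 2 transcripts. NM_007313 averaged 11.1 ± 2.33 normalized counts in the knockdown and 72.1 ± 1.09 in the scrambled libraries (SD, n = 3 each), and NM_005157, which starts at another first exon, 20.5 ± 3.75 and 8.74 ± 1.84. The log2 changes were -2.62 for NM_007313 (limma adjusted p = 4.11e-06) and 1.15 for NM_005157 (limma adjusted p = 0.0180). The rise of NM_005157 lost its call without knockdown replicate 3 (limma adjusted p = 0.0747), without scrambled replicate 2 (0.0501) and without replicate 2 of both groups (0.0808).

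Markers of cell types were measured as a check of the label. Hepatocyte genes were the most abundant of the lists: the sum of the 7 measured markers, among them AFP, ALB and TF, was 417229 to 465144 normalized counts in the knockdown and 505981 to 573667 in the scrambled libraries, and of the 6 tested 4 fell. The 6 measured biliary markers summed to 5816 to 6256 in the knockdown and 8569.6 to 9789 in the scrambled libraries, with 4 lower and 1 higher. The 4 endothelial markers summed to 125 to 147 and 176 to 204, with 3 lower and 1 higher. The 5 smooth muscle and fibroblast markers summed to 12014 to 13381 and 8586 to 9585, with 1 lower and 3 higher. COL1A2 gave most of that sum, at 11998 normalized counts in the knockdown and 7820 in the scrambled libraries. COL1A1 fell, at 365 and 741, COL3A1 and LUM rose, and PDGFRB did not pass (limma adjusted p = 0.432). The 2 immune markers, of which LYZ gave nearly all the counts, summed to 6526 to 7467 and 5679 to 6298, with 1 lower and 1 higher. None of the measured markers was at 0 in every library. The hepatocyte, biliary and endothelial sums were thus lower in the knockdown, and the smooth muscle and fibroblast and the immune sums higher. Over all transcripts tested, 27.4% passed as falls and 24.5% as rises. The part of these lists in the Notch results was not tested.

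All 3 receptors fell, NOTCH1 the most and NOTCH2 the least, and the fall of NOTCH2 depended on the scaling. NOTCH1 (NM_017617, GRCh38 chromosome 9, 136494433 to 136545786, minus strand, 34 exons) had 179, 133 and 234 normalized counts in the knockdown libraries, against 777, 642 and 752 in the scrambled libraries. The highest knockdown library was below the lowest scrambled one by a wide margin, although the 3 knockdown libraries differed among themselves more, relative to their mean, than the scrambled ones did. The group means were 182 ± 50.5 and 724 ± 71.8 (SD, n = 3 each), so the knockdown kept 25.2% of the scrambled level. The log2 change was -2.02 (SE 0.17, 95% interval -2.38 to -1.65, limma adjusted p = 9.13e-07), which placed NOTCH1 at rank 131 of the 8600 transcripts counted from the most lowered.

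NOTCH3 (NM_000435, chromosome 19, 15159038 to 15200981, minus strand, 33 exons), a receptor best known from vascular smooth muscle, had 779, 557 and 753 normalized counts in the knockdown and 2195, 1657 and 1949 in the scrambled libraries. Every knockdown library was again below every scrambled one. Its means were 696 ± 121 and 1933.5 ± 269.7, a log2 change of -1.48 (SE 0.13, 95% interval -1.76 to -1.19, limma adjusted p = 1.46e-06).

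NOTCH2 (NM_024408, chromosome 1, 119911553 to 120069626, minus strand, 34 exons), the receptor most tied to bile duct formation, moved least. It had 1435, 1342 and 1443 normalized counts in the knockdown libraries and 1727, 1619.6 and 1742 in the scrambled libraries. The groups did not overlap but lay close together. The knockdown kept 82.9% of the scrambled level, a log2 change of -0.27 (SE 0.07, 95% interval -0.43 to -0.11, limma adjusted p = 0.00849). With libraries scaled to equal totals the change was -0.10 (limma adjusted p = 0.273) and with quantile normalization -0.17 (limma adjusted p = 0.0620), so its call depended on the scaling. NOTCH2 shares near-identical sequence with NOTCH2NL, and the sources used here do not say how reads that match both were counted. The NOTCH2NL row had 138 ± 7.95 normalized counts in the knockdown and 144 ± 35.0 in the scrambled libraries (log2 change -0.03, limma adjusted p = 0.883).

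Because the receptors moved by different amounts, their mix differed between the groups. Per kilobase of exons the 3 receptors summed to 223 ± 23.5 normalized counts in the knockdown and 449.9 ± 43.7 in the scrambled libraries. NOTCH2 made up 53.6%, 60.0% and 53.1% of that sum in the knockdown libraries, against 31.1%, 35.3% and 33.4% in the scrambled libraries. NOTCH3 made up 35.8% ± 2.79 in the knockdown and 49.5% ± 2.21 in the scrambled libraries, and NOTCH1 8.67% ± 1.68 and 17.3% ± 0.29. NOTCH2 was thus the most abundant receptor transcript in each knockdown library, and NOTCH3 in each scrambled library.

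A ratio of transcripts within a library removes the scaling of that library, except for the 1 that was added to each normalized count. The log2 ratio of NOTCH1 to NOTCH2 was -3.00, -3.32 and -2.62 in the knockdown libraries and -1.15, -1.33 and -1.21 in the scrambled libraries, a difference of -1.75. That of NOTCH3 to NOTCH2 was -0.88, -1.27 and -0.94 in the knockdown and 0.35, 0.03 and 0.16 in the scrambled libraries, a difference of -1.21. Neither ratio overlapped between the groups. Of 4 ratios tested with a two-sided exact permutation test over libraries, each gave p = 0.1, also adjusted over the 4, which is the smallest p that 3 libraries against 3 allow, so none could pass.

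**Figure D2:**
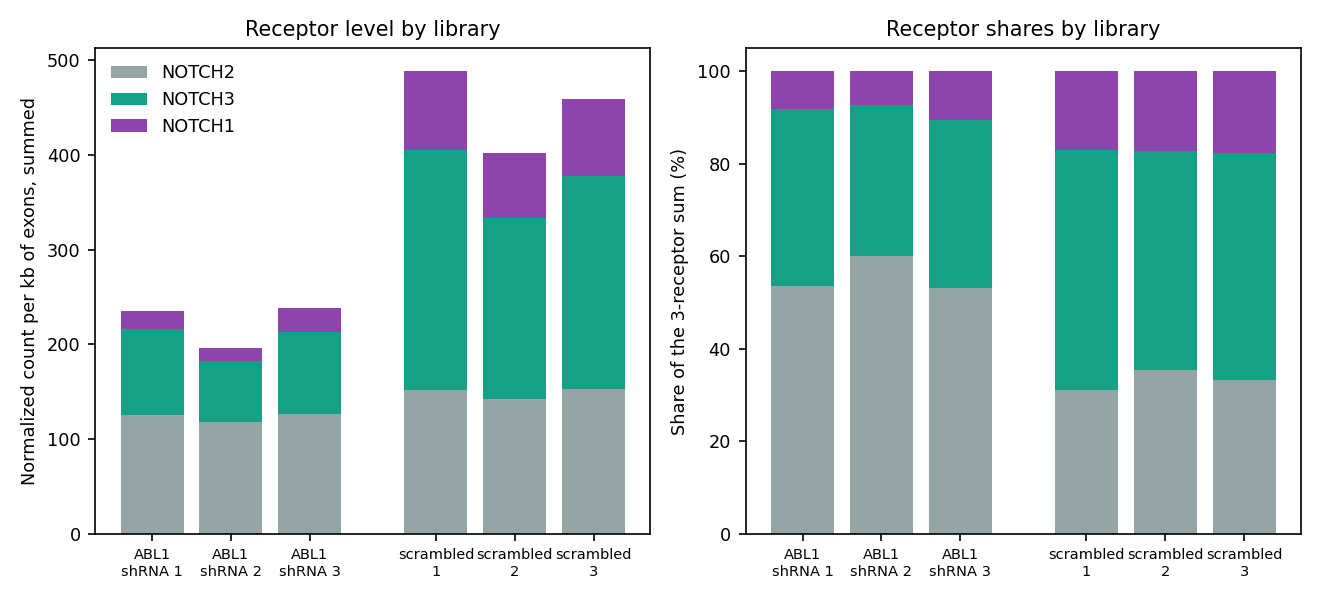
Left, normalized counts per kilobase of exons of NOTCH1, NOTCH2 and NOTCH3, stacked, for each library; right, the share of each receptor in that sum (%). The sums average 223 in the ABL1 shRNA and 449.9 in the scrambled libraries, and the NOTCH2 share is 53.1% to 60.0% in the ABL1 shRNA and 31.1% to 35.3% in the scrambled libraries.

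JAG1 (NM_000214, chromosome 20, 10637684 to 10673999, minus strand, 26 exons) is a ligand that binds these receptors from the neighbouring cell. It had 1294, 1264 and 1311 normalized counts in the knockdown libraries, against 3119.8, 2953 and 2958 in the scrambled libraries. Libraries of a group lay within a few percent of their mean, and the groups were far apart. The knockdown kept 42.8% of the scrambled level, a log2 change of -1.22 (SE 0.07, 95% interval -1.37 to -1.07, limma adjusted p = 4.27e-08), the smallest p of the 10 genes. Of its exon bases 79 also lie in exons of an antisense gene, AL050403.2, and the sources used here do not say whether the counting used strand. DLL4, a ligand best known from blood vessels, had 106 ± 15.0 and 97.5 ± 9.50 normalized counts and overlapping groups (log2 change 0.12, limma adjusted p = 0.579). DLK1, a non-canonical ligand and fetal liver marker, had 95.2 ± 35.2 and 44.5 ± 25.8. Its log2 change of 1.16 passed (limma adjusted p = 0.0203) although the groups overlapped, and did not pass without knockdown replicate 2 (limma adjusted p = 0.0599) or 3 (0.0751), without scrambled replicate 1 (0.0819), without replicate 2 of both groups (0.0892), or, with all libraries, in the fit with no mean-variance trend (0.0937).

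The MAML coactivators went the other way. MAML proteins bind the complex of the Notch intracellular domain with RBPJ and recruit histone acetyltransferases. MAML3 (NM_018717, chromosome 4, 139716753 to 140154184, minus strand) had 818, 824 and 783 normalized counts in the knockdown libraries, against 489, 476 and 471 in the scrambled libraries. The spread within each group was small beside the gap between them. Its level in the knockdown was 1.69 times the scrambled level, a log2 change of 0.75 (SE 0.08, 95% interval 0.57 to 0.93, limma adjusted p = 8.89e-06). On the opposite strand, exons of MGST2 cover 252 bases of its exons.

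MAML1 (NM_014757, chromosome 5, 179732850 to 179777286, plus strand) had 1996, 1715 and 1986 normalized counts in the knockdown libraries and 1571, 1271 and 1448 in the scrambled libraries. The lowest knockdown library was above the highest scrambled one. The log2 change was 0.41 (SE 0.09, 95% interval 0.21 to 0.62, limma adjusted p = 0.00282). MAML2, the remaining family member, had 37.2 ± 6.45 and 26.4 ± 5.78 normalized counts and did not pass (log2 change 0.49, limma adjusted p = 0.150). The log2 ratio of MAML1 to MAML3 was 1.29, 1.06 and 1.34 in the knockdown and 1.68, 1.41 and 1.62 in the scrambled libraries, a difference of -0.34 without overlap (exact permutation p = 0.1).

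The target genes divided. HES1 and HEY2 both encode basic helix-loop-helix repressors that Notch is known to induce through RBPJ sites, and their promoters are shown because the 2 genes moved in opposite directions. The windows run from 250 bases before to 50 bases after the start of each gene (RefSeq, GRCh38.p14, plus strand), chr3:194135898-194136197 for HES1 and chr6:125749382-125749681 for HEY2. Capitals mark the RBPJ core TGGGAA, or TTCCCA where it lies on the opposite strand.
HES1: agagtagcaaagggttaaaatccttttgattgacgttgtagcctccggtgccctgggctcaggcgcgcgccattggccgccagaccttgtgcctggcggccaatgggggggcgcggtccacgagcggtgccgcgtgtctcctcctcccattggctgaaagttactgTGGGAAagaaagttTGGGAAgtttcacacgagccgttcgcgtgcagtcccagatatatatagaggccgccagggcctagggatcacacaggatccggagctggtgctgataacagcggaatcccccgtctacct
HEY2: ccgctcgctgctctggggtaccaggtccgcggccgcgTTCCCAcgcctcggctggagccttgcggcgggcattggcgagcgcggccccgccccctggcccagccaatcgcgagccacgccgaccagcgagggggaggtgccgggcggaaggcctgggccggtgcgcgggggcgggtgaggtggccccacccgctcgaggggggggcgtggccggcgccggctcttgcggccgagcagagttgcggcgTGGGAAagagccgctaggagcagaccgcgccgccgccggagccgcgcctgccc
In HES1 the cores begin 84 and 70 bases before the start, 14 bases apart and in the same direction. In HEY2 one begins 213 bases before the start on the opposite strand and the other 3 bases before it, and both carry the preceding G of GTGGGAA, as the farther one of HES1 does. These distances are from the RefSeq start, which can differ from the start of the GENCODE transcript. The HEY2 transcript given below begins at 125749580, so the nearer core lies downstream of that start. The NOTCH1 window, 136545999 to 136546298 on the minus strand, ends before the GENCODE transcript begins at 136545786. Promoters were found for 9 of the 10 genes, and HES1 and HEY2 were the 2 that held TGGGAA on either strand. Of 35116 promoters of the same length, 24.0% held that core on either strand, 3.8% held it at least 2 times, and 6.25% held GTGGGAA. The N-box that HES repressors bind, searched as CACNAG, was found 4 times in HES1 and 0 times in HEY2, and their E-box type site, searched as CACGNG, 4 times in HES1, where 2 of the matches are the same bases as an N-box, and 0 times in HEY2. Among all promoters 38.0% held CACNAG and 30.5% CACGNG, and 8.94% and 8.16% held them at least 2 times. Of the other genes that rose, MAML1 and MAML3 each held CACNAG 1 time and CACGNG 0 times. Of those that fell, NOTCH1 held them 2 and 0 times, NOTCH2 and NOTCH3 1 and 1, JAG1 0 and 1, and NRARP 1 and 3. The 2 matches in NOTCH1 overlap each other on opposite strands. In NOTCH2, and likewise in NOTCH3, the CACNAG match and the CACGNG match are the same bases, CACGAG. Whether such matches bear on the changes was not tested. These are matches of letters, not bound sites.

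HES1 (NM_005524, chromosome 3, 194136145 to 194138732) had 985, 902 and 1008 normalized counts in the knockdown libraries, against 1367, 1339 and 1358 in the scrambled libraries. The scrambled libraries were nearly equal and each was above every knockdown library. The knockdown kept 71.2% of the scrambled level, a log2 change of -0.49 (SE 0.08, 95% interval -0.66 to -0.32, limma adjusted p = 0.000188). The change was -0.32 with equal totals (limma adjusted p = 0.00323).

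HEY2 (NM_012259, chromosome 6, 125749580 to 125761269) had 82.2, 78.0 and 95.9 normalized counts in the knockdown libraries, against 35.9, 32.5 and 23.5 in the scrambled libraries. These rest on 84, 69 and 93 reads, against 43, 29 and 25, far fewer than for HES1. The lowest knockdown library had more than any scrambled one. The level in the knockdown was 2.79 times the scrambled level, a log2 change of 1.47 (SE 0.22, 95% interval 0.98 to 1.95, limma adjusted p = 0.000148). A rise of at least 2-fold that passed was seen for 7.93% of all transcripts tested. The log2 ratio of HEY2 to HES1 was -3.57, -3.51 and -3.38 in the knockdown libraries and -5.21, -5.32 and -5.80 in the scrambled libraries, a difference of 1.96 without overlap (exact permutation p = 0.1). With 0.5 or 5 added to each normalized count in place of 1, that difference was 1.97 or 1.84. HEYL, a relative of HEY2, had 24.1 ± 3.26 and 24.4 ± 3.27 normalized counts (log2 change -0.02, limma adjusted p = 0.962).

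DTX1 (NM_004416, chromosome 12, 113057690 to 113098028, plus strand) encodes an E3 ubiquitin ligase that binds Notch receptors and modifies their traffic, and is itself a Notch target. It had 17, 12 and 10 reads in the knockdown libraries, against 109, 63 and 77 in the scrambled libraries, or 16.6, 13.6 and 10.3 against 90.9, 70.6 and 72.2 normalized counts. The highest knockdown library was far below the lowest scrambled one. The knockdown kept 17.3% of the scrambled level, the least of the 10 genes. The log2 change was -2.46 (SE 0.26, 95% interval -3.03 to -1.88, limma adjusted p = 7.52e-06), rank 50 of 8600 from the most lowered.

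NRARP (NM_001004354, chromosome 9, 137300482 to 137302251, minus strand, 1 exon) encodes an ankyrin repeat protein that binds the nuclear Notch complex and limits its activity. It had 55.8, 59.9 and 65.0 normalized counts in the knockdown libraries, against 166, 101 and 132 in the scrambled libraries. The scrambled libraries were widely spread, yet their lowest was above every knockdown library. The log2 change was -1.10 (SE 0.20, 95% interval -1.53 to -0.68, limma adjusted p = 0.000475). It was -0.93 with equal totals (limma adjusted p = 0.00159) and -0.93 without scrambled replicate 1 (0.00299), a fall of less than 2-fold in each.

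**Figure D3:**
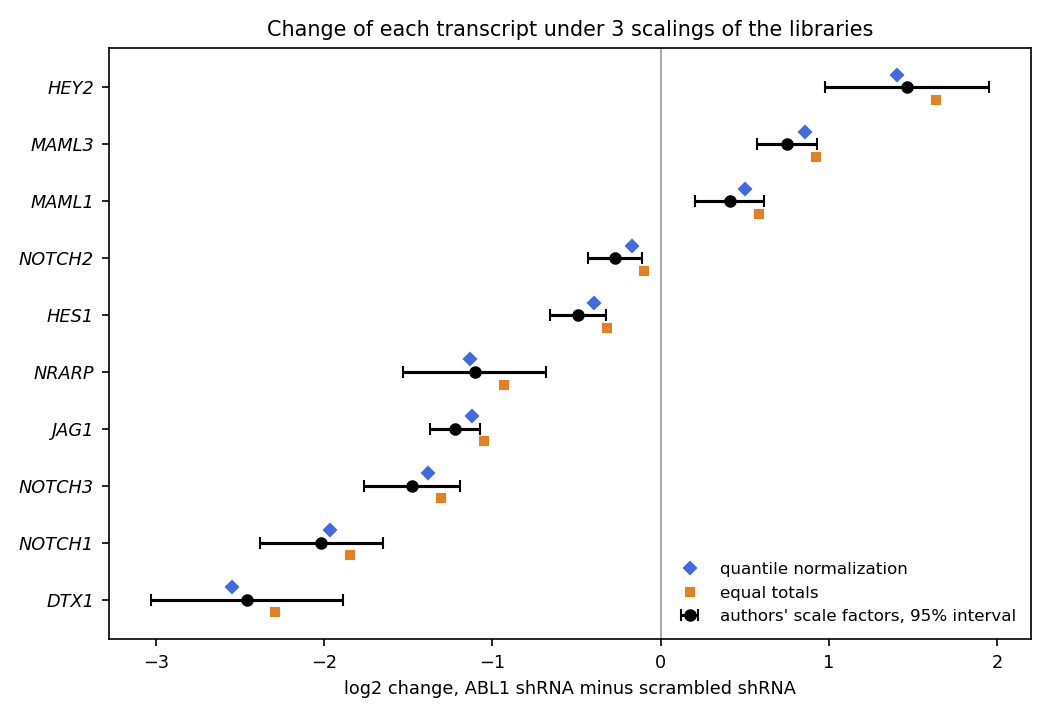
The log2 change (ABL1 shRNA minus scrambled) of each of the 10 transcripts with the authors' scale factors and its 95% interval (black), with quantile normalization (blue diamonds) and with equal library totals (orange squares). The order runs from HEY2 at 1.47 to DTX1 at -2.46, no gene changes sign, and NOTCH2 comes nearest to 0, at -0.10 with equal totals.

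Levels of different genes can be set side by side only per length of transcript. Per kilobase of exons, HES1 was the most abundant of the 10 in both groups, with 612 ± 35.3 normalized counts in the knockdown and 859 ± 9.00 in the scrambled libraries. MAML1 came next in the knockdown group (332 ± 27.9), followed by JAG1 (217 ± 4.06), NOTCH2 (124 ± 4.96) and MAML3 (118 ± 3.22). NOTCH2 and MAML3 overlapped between libraries. NOTCH3 (80.4 ± 14.0), NRARP (34.0 ± 2.61), HEY2 (31.9 ± 3.51), NOTCH1 (19.6 ± 5.42) and DTX1 (3.91 ± 0.91) followed, with NRARP and HEY2 overlapping. In the scrambled group JAG1 was second (507 ± 15.9), then MAML1 (249.8 ± 26.3) and NOTCH3 (223 ± 31.1), which overlapped, NOTCH2 (149 ± 5.88), and NOTCH1 (77.8 ± 7.72), NRARP (75.2 ± 18.4) and MAML3 (70.0 ± 1.38), which overlapped as well. DTX1 (22.6 ± 3.26) and HEY2 (11.4 ± 2.39) came last. NOTCH1 thus stood at rank 9 in the knockdown and rank 6 in the scrambled group, and HEY2 at ranks 8 and 10.

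The rest of the pathway was read from lists by role. Of 98 genes listed, the 10 included, 47 had a tested transcript, of which 15 rose and 18 fell (70.2%, against 51.9% of all transcripts). Without the 10 genes, 37 were tested, with 12 rises and 11 falls, and their median log2 change was 0.0095. With equal totals 16 of the 47 rose and 16 fell, since EP300 gained a rise and NOTCH2 and SNAI1 lost their falls. Without replicate 2 of both groups 11 rose and 18 fell, and without scrambled replicate 2 alone 11 rose and 19 fell. The calls of DTX3, ADAM10, CIR1 and CTBP1 were read gene by gene only under the alternative scalings and without replicate 2 of both groups. Losses given for these genes below are therefore not complete.

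Of the 10 tested genes of ubiquitin ligases and endocytic adaptors 3 fell and 2 rose, a share close to the 51.9% of all transcripts. NEURL1 and MIB1, ligases that ubiquitinate ligands so that they are taken up and pull on the receptor, fell with DTX1. NEURL1 had 25.8 ± 5.70 normalized counts in the knockdown and 128 ± 9.67 in the scrambled libraries (log2 change -2.28), and MIB1 945 ± 62.1 and 2051 ± 257.7 (-1.11). The kinase AAK1 rose (0.33), as did DTX3 (0.69), which lost its call with quantile normalization and without replicate 2 of both groups. Of the 3 tested genes of receptor glycosylation 2 rose: POFUT1, which adds O-fucose to the receptors, with 3934 ± 93.1 and 2624 ± 82.9 normalized counts (0.58), and XXYLT1 (0.72), whose call was lost without knockdown replicate 1 (limma adjusted p = 0.0576) or 2 (0.0507), without scrambled replicate 2 (0.0530), and without replicate 2 of both groups (0.124).

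Of the 5 tested genes of receptor cleavage 3 rose and 1 fell, where 24.5% of all transcripts rose and 27.4% fell. The convertase FURIN had 65.2 ± 21.1 and 15.3 ± 2.05 normalized counts (log2 change 1.97, transcript NM_001289824, 1 of 8 RefSeq transcripts of the gene). ADAM17 (0.32) and ADAM10 (0.22), proteases that can cut Notch receptors, rose slightly. ADAM17 lost its call without knockdown replicate 1 (limma adjusted p = 0.0504), and ADAM10 without replicate 2 of both groups. The tetraspanin gene TSPAN5, which guides ADAM10 to the membrane, fell (-1.31) and lost its call without scrambled replicate 1 (limma adjusted p = 0.0552).

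In the nucleus, 2 of the 8 tested coactivator genes rose, MAML1 and MAML3, and 3 fell: the kinase CDK8 (-1.22), which phosphorylates the intracellular domain for degradation, and the acetyltransferases KAT2B (-0.82) and KAT2A (-0.56). Of the 7 tested corepressor genes 4 rose and 1 fell, against the same 24.5% and 27.4%. NCOR1 (0.96, transcript NM_006311, 1 of 9), KDM5A (0.37), CIR1 (0.34) and CTBP1 (0.67, transcript NM_001012614, 1 of 10) rose, CTBP1 not without replicate 2 of both groups. For CIR1 and CTBP1 the settings that left out a single library were not read gene by gene. The deacetylase gene HDAC1 fell to 1974 ± 87.0 normalized counts in the knockdown, against 3507 ± 139 in the scrambled libraries (-0.83).

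Of the 10 tested genes on the list of targets 8 fell and 1 rose, HEY2, where 27.4% of all transcripts fell and 24.5% rose. Of these 10 targets, HES1, HEY2, NRARP, DTX1 and NOTCH3 are among the genes chosen for description, and the list was chosen with earlier results known, so the count is a description. The falls, beside HES1, NRARP, DTX1 and NOTCH3, were MYC (577 ± 28.7 and 2247 ± 97.1 normalized counts, log2 change -1.96), CCND1 (2163 ± 9.19 and 6773 ± 222.6, -1.65), SOX9 (-0.48) and SNAI1 (-0.40). SNAI1 did not pass with equal totals (limma adjusted p = 0.0958) or without replicate 2 of both groups (0.0855). MYC and CCND1, drivers of growth and of the cell cycle, are targets of many other pathways too. The median log2 change of the list was -0.80, against 0.0018 over all transcripts.

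**Figure D4:**
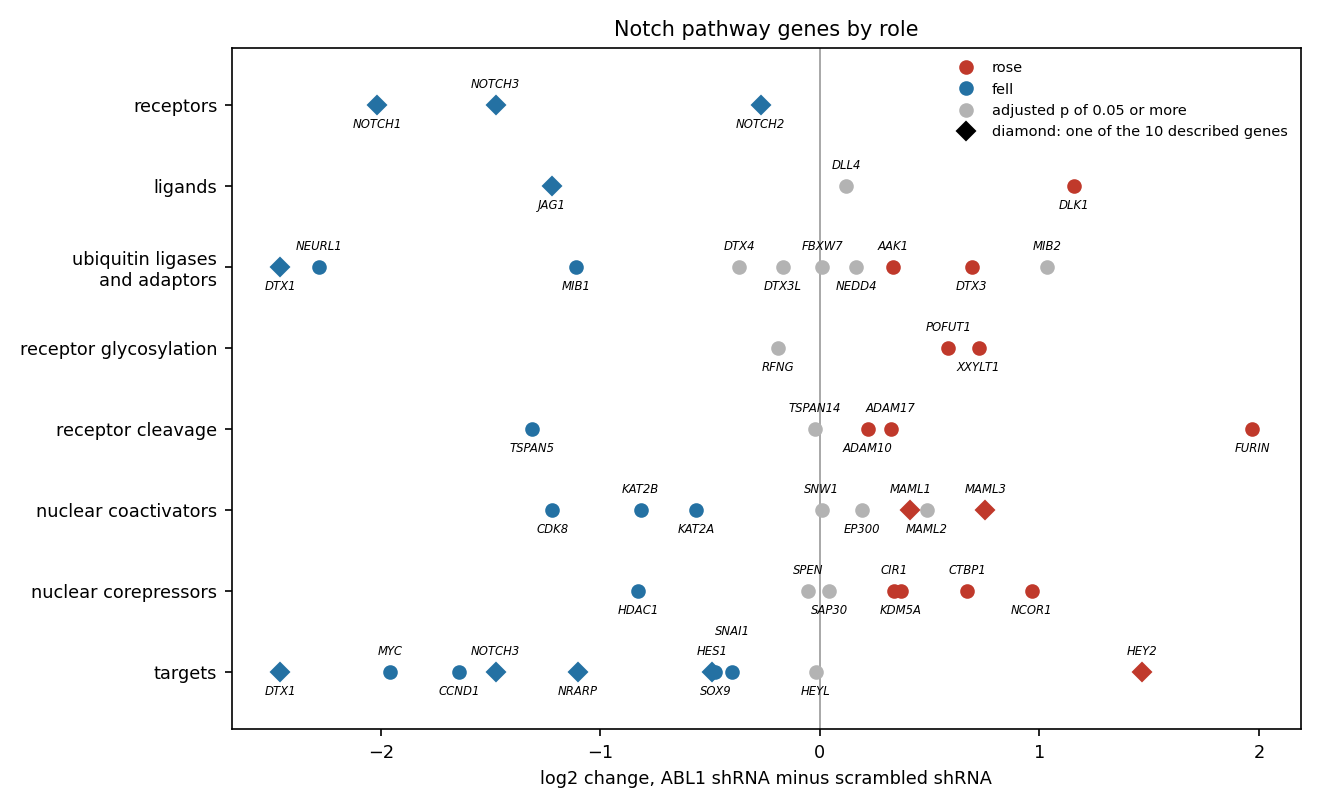
The log2 change (ABL1 shRNA minus scrambled) of the 47 tested Notch pathway genes by role; red points rose, blue points fell, grey points did not pass, and diamonds are the 10 genes described here. All 3 tested receptors are left of 0, from -2.02 to -0.27, 8 of the 10 tested targets fell, and 4 of the 7 tested corepressors rose; with equal totals NOTCH2 and SNAI1 lose their calls.

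Transcripts whose values over the 6 libraries were most like those of a member were sought among 4294 named transcripts at or above the median abundance, by the root mean square difference in log2 level after each was centred on its scrambled mean. Closest to NOTCH1 were EID2, COL9A3, GNAZ, ZNF467 and MYC, at differences of 0.14 to 0.21 and with log2 changes of -2.03 to -1.96. Closest to HES1 were PIK3AP1, STARD10, EGFR, TUBG1 and MAST2, at 0.034 to 0.041, and closest to HEY2 were LINC00654, CASTOR1, ALG10, SLC25A20 and HSPB8, at 0.13 to 0.18. With 2 groups of 3 libraries, likeness of this kind mostly reflects a similar difference between the groups.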

How the data were processed

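The authors deposited 1 signal value per library and RefSeq transcript. Per the submitters' processing notes, HISAT2 2.0.4, HTSeq 0.6.1 and hg38 were used; the sources used here do not state the annotation, strand setting, scale factors or filter. Each deposited signal proved to be the square root of a library's step times a whole number plus 3/8. Undoing this gave whole reads within 0.05 for 100% of values in each library. The normalized count is the recovered reads times the library's step relative to the geometric mean of the 6, which keeps the authors' scale factors. Transcripts with a mean of at least 10 normalized counts were tested with limma 3.58.1 in R 4.3.3 (lmFit, eBayes with trend) on log2(normalized count + 1), two-sided, Benjamini-Hochberg adjusted over 8600 transcripts, threshold 0.05. A log2 change is knockdown minus scrambled on that scale, which understates changes of low transcripts. The fit was tested on simulated counts. The recovery was tested on simulated reads with the step known, so the estimation of the step was not tested by simulation.

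Positions, exons and exonic lengths are from GENCODE 29 (GRCh38, the build named hg38), promoters from RefSeq. Listed genes with several tested transcripts are represented by the most abundant one. Named genes are the 10 members, ABL1, MYC, CCND1, up to 3 further changed genes per role by smallest p, and 5 transcripts most like each of NOTCH1, HES1 and HEY2. Where a role's changed genes outside this rule are also named, with others that did not pass, those were picked with their values in view. The members and lists were chosen with earlier results of these data known. Replicates of a group were compared before averaging, and chi-square per degree of freedom was 5.89 to 10.6. They were therefore not treated as repeat sequencing of 1 library, and each counted as 1 replicate. That does not show that they came from separate cultures. Each choice of scaling, filter, pseudocount, variance model and libraries was varied in turn, and 1 setting, without replicate 2 of both groups, was added after seeing the data.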

Additional observations from a re-analysis of the deposited data

How the results depend on the processing

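A setting without replicate 2 of both groups was chosen after seeing the data. The 10 genes kept their direction under all 19 alternatives to pseudocount, filter, scaling, variance model, gene-level sums, replicate block and libraries. Of 189 alternative values 187 also stayed past the threshold, and the 2 that did not are those of NOTCH2 with equal totals and with quantile normalization. With a minimum mean of 50 normalized counts DTX1 could not be tested. The number of transcripts changed was 3654 to 4821 under the alternatives, beside 4460, and 47.2% of the changes were rises. With equal totals 63.8% were rises, and the median log2 change of all transcripts was 0.18. For ABL1 NM_005157 the sum over both ABL1 transcripts gave -1.33: NM_007313, which fell, is the less abundant of the 2 in the knockdown, at 11.1 against 20.5 normalized counts, and the more abundant in the scrambled libraries, at 72.1 against 8.74. The replicate block gave 4821 changed transcripts, 10 of the 10 Notch genes and 33 of the 47 listed genes. Deviations of same-numbered libraries correlated at 0.047 to 0.077, and knockdown libraries 1 and 3 correlated more with a scrambled library of another number, so the numbers were not taken as pairs. The block changed no call of the 10 genes. Depth limits DTX1 and HEY2 most, at 10 to 109 reads per library.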

Other observations

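LFNG, a glycosyltransferase that lengthens O-fucose on Notch receptors and changes which ligand they answer to, fell under the filter on low counts and had no test in the results above. It had 1, 1 and 1 reads in the knockdown libraries, against 17, 6 and 12 in the scrambled libraries. Without the filter its log2 change was -2.46 (limma adjusted p = 0.00187). It was singled out after its values were seen.

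Replicate 2 was the shallowest library of each group, with 6651413 reads in the knockdown and 7713451 in the scrambled group. Of the 10 Notch genes 7 had their lowest normalized count of the knockdown group in replicate 2, and 8 had their lowest of the scrambled group there, 6 of them in both groups. Over all 8600 transcripts those shares were 37.0%, 35.7% and 16.8%. Without replicate 2 of both groups the log2 change of NOTCH1 was -1.90 and that of NRARP -1.29, and 10 of the 10 genes still passed. Why the Notch transcripts were low in these libraries was not tested.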
